A study of Homo sapiens with 30 samples.

Results

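The genes described here are the nuclear-encoded subunits of respiratory chain complexes I, III and IV and of ATP synthase, complex V, in Rh30. This established cell line comes from an alveolar rhabdomyosarcoma, a childhood muscle-lineage tumour, and expresses the fusion transcription factor PAX3-FOXO1. They were chosen by symbol: names that begin NDUFA, NDUFB, NDUFC, NDUFS or NDUFV followed by a number, UQCR, COX4 to COX8, or ATP5, with pseudogenes and 1 further gene left out. Of 23233 genes listed in all 3 count tables, 83 met that rule. Of these, 79 are names of the 4 complexes, 38 of complex I, 9 of complex III, 16 of complex IV and 16 of complex V. The other 4 were counted apart: COX4NB, ATP5S and ATP5SL encode no subunit of these enzymes despite their names, and ATP5J2-PTCD1 is a read-through name. NDUFA4 and its paralogue NDUFA4L2 are counted with complex I by name, although NDUFA4 was later assigned to complex IV.

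RNA sequencing covered 30 samples in 15 groups of 2. In the time course, Rh30 cells with an FKBP degradation tag on PAX3-FOXO1 (the PAX3-FOXO1-FKBP line) or on wild-type FOXO1 (the FOXO1-FKBP line) were kept in DMSO or in 500 nM dTAG, which directs a tagged protein to the proteasome, for 2, 6, 24 or 72 h. The clone table holds the PAX3-FOXO1-FKBP clones 4, 10, 11 and 12 and parental Rh30, untagged, all in DMSO. Each clone is a single clone, so a difference from parental cells belongs to that clone and not to the tag in general, and the sources used here do not say which clone, if any, became the time-course line. The deposited time-course tables hold 1 column per condition, in which the authors joined both samples, so no replicate error can be given there. No label says whether the samples of a group were grown separately, and p-values therefore reflect only how far these samples differ, which may be technical. Column totals ran between 25863200 and 30466500 estimated counts in the time course and between 17746684 and 26834005 counts in the clone table. Of 8 muscle and rhabdomyosarcoma marker genes, 7 had at least 10 counts in every column. The 2 h column of the PAX3-FOXO1-FKBP line also carried 1745 counts over 10 B-lineage marker genes, all 10 at 10 counts or more, against 49.7 to 100.03 in the other columns of that line. Its part in the 2 h values was not tested. A list of 4 fibroblast markers summed to 22996 and 19183 counts in clone 10, against 944 and 1079 in parental cells, with 2 of the 4 at 10 counts or more in each of these libraries, and it summed to 338 to 1988 in the other clone libraries. In the PAX3-FOXO1-FKBP time course it summed to between 19197 and 25238 counts, highest at 72 h, and in the FOXO1-FKBP line to between 2814 and 4300. Its part in the results was not tested. Bulk RNA cannot tell fewer cells of a type from less RNA per cell.

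The respiratory chain passes electrons from NADH to oxygen within the inner mitochondrial membrane. Complex I oxidises NADH, complex III passes electrons to cytochrome c, complex IV hands them to oxygen, and complex V uses the proton gradient these pumps build to make ATP. Catalytic cores are partly encoded by mitochondrial DNA, while most accessory subunits, and the core subunits examined here, come from nuclear genes with short, abundant mRNAs. Proliferating myoblasts and muscle fibres differ in how much they rely on this chain, and several complex IV subunits have separate muscle, testis or ubiquitous isoforms.

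Many of these genes carry recognition letters for ETS factors, NRF1 or YY1 near their start. RefSeq promoter windows (GRCh38.p14), which span 250 bases before to 50 bases after the start, could be matched for 64 of the 79 names. On either strand, the ETS letters CCGGAAG stood in 26.6% of these windows, against 14.2% of 15843 windows of protein-coding genes. The NRF1 letters GCGCATGCG stood in 14.1% of the members' windows, against 2.76% of all windows. For the YY1 letters AAGATGGCG the shares were 10.9% and 2.74%. At least 1 of the 3 stood in 43.8% of the members' windows, against 18.3%. The TATA letters TATAAA were about as frequent in both, at 9.38% and 9.63%. The ETS and YY1 letters can share bases, which they did in 0 of the 64 windows. NRF1 letters were found in 4 of 11 complex V windows, 4 of 33 for complex I, 1 of 13 for complex IV and 0 of 7 for complex III. Such matches describe letters in a window and not binding.

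To show these letters in place, 1 window is given for each complex, from genes whose levels differed between clones below. Capitals mark ETS, NRF1 or YY1 letters. NDUFA9 (complex I, chr12:4648864-4649163, plus strand) and UQCRC1 (complex III, chr3:48609597-48609896, minus strand) hold YY1 letters near the end of the window. COX5B (complex IV, chr2:97645812-97646111, plus strand) holds the ETS letters at 2 places, and in ATP5C1 (complex V, chr10:7787927-7788226, plus strand) the NRF1 letters overlap on both strands.
NDUFA9: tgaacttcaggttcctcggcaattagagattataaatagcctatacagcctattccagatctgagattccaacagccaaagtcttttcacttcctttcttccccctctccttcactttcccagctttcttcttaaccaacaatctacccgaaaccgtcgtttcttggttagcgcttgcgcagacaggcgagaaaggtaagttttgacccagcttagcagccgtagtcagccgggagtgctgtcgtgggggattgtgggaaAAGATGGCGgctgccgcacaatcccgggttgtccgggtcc
UQCRC1: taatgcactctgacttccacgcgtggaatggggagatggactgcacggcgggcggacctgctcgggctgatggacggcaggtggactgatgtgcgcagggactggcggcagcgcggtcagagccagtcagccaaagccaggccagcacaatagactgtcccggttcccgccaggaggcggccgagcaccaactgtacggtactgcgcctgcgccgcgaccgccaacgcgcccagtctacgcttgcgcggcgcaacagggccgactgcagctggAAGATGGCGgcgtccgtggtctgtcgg
COX5B: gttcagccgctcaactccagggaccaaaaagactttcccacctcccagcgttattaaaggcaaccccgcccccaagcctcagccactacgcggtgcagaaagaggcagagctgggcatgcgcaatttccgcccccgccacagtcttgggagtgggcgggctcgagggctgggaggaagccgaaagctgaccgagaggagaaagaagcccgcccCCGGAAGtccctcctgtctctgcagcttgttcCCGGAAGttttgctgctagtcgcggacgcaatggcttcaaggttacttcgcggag
ATP5C1: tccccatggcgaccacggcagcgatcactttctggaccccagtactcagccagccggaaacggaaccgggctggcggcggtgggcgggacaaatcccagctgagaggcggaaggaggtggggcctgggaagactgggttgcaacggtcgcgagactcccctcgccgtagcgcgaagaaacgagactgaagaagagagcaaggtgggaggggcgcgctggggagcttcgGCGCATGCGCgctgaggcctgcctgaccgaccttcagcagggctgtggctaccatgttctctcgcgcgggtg

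Of the genes kept by the rule, Rh30 cells expressed the ubiquitous set of subunits and almost none of the tissue isoforms among them. On the TPM scale, which divides counts by transcript length and sets every library to the same total, the highest mean level over all 20 columns was that of ATP5J2, the f subunit of complex V, at 1160 TPM, followed by COX8A of complex IV at 850 TPM. UQCRH, the hinge protein of complex III, led its complex at 779 TPM, and its near-identical copy UQCRHL had at most 10.7 counts in any column, so reads of the pair cannot be fully told apart. NDUFS5, an accessory subunit, led complex I at 739 TPM. Second in their complexes were ATP5B at 748 TPM, COX4I1 at 614 TPM, NDUFB7 at 609 TPM and UQCRQ at 456 TPM. In the parental libraries the complex medians were 302 and 294 TPM for complex IV, 255 and 263 TPM for complex V, 131 and 133 TPM for complex III, and 131 and 131 TPM for complex I. Annotated transcripts of NDUFA9, ATP5E, UQCRFS1 and a few others are long for their coding part, so their per-length levels are uncertain.

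Isoforms showed the contrast directly. COX4I1 averaged 614 TPM, while COX4I2, its isoform known from lung, had 0 counts in every library of the clone table and 1.78 estimated counts in 1 time-course column. COX7B2, a testis isoform, was at 0 in all 20 columns, against a mean of 292 TPM for COX7B. COX8C, also testis-restricted, had at most 1.73 counts, and ATP5L2 at most 3.53. COX6B2, another testis isoform, had 7.07 to 16.5 estimated counts per time-course column and 0 to 8 counts per clone-table library. The 3 genes for the same c-ring protein of complex V were all expressed, ATP5G1 at a mean of 326 TPM, ATP5G2 at 273 TPM and ATP5G3 at 163 TPM. NDUFA4 averaged 261 TPM and its hypoxia-linked paralogue NDUFA4L2 15.1 TPM. COX7A1, the heart and muscle isoform, had 0.585 to 4.44 estimated counts in the time course, where COX7A2 averaged 414 TPM over the 20 columns.

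Together the members took a small share of all counts. In the PAX3-FOXO1-FKBP line it was 0.789% in DMSO, then 0.902%, 0.901%, 0.818% and 0.972% at the 4 dTAG times. For the FOXO1-FKBP line it was 1.073% in DMSO, then 1.054%, 1.146%, 0.955% and 1.182%. The share was thus highest at 72 h and lower at 24 h than at 6 h in both lines.

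In the PAX3-FOXO1-FKBP line most subunit genes stood slightly above their DMSO level under dTAG, and none of them passed the trend test. The test was edgeR's quasi-likelihood fit of a straight line through the 5 columns, with time entered as log2 of hours plus 1. It called 0 of 73 members tested (Benjamini-Hochberg adjusted p under 0.05), against 4.54% of all genes tested. The lowest adjusted p was 0.247, for NDUFB2. DESeq2 also called 0 members, and 1046 of 14251 genes. An unadjusted p under 0.05 was found for 5 members, 6.85%, against 17.1% of all genes. Slopes were above 0 for 71 of the 73. All times share the same DMSO column. Among the 72 members with a mean of at least 50 normalised counts, the median log2 change from DMSO was 0.25, 0.26, 0.06 and 0.44 at 2, 6, 24 and 72 h, where the median over all genes was 0.00, 0.02, 0.01 and 0.00. Members above their DMSO value numbered 66, 68, 54 and 70 at these times. With the 24 h column left out, 8 of 73 members passed, a share near the 9.94% of all genes that did. The 8 were COX7A2, UQCR11, NDUFB2, NDUFA13, UQCRQ, NDUFS6, NDUFA8 and COX6B1, all with slopes above 0. Leaving out the 2, 6 or 72 h column instead called 0 members, as did time entered as rank.

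No member reached 2-fold at any time. In that line 0.617%, 1.84%, 3.11% and 6.47% of all genes did at 2, 6, 24 and 72 h, in either direction. At least 1.5-fold higher were 2 members at 2 h (2.08% of all genes), 2 at 6 h (2.94%), 0 at 24 h (3.82%) and 18 at 72 h (9.65%). The 18 comprised 13 of 38 complex I genes, 3 of 8 of complex III, 2 of 11 of complex IV and 0 of 15 of complex V. The complexes otherwise differed little. At 72 h the median log2 change was 0.46 for complex I, 0.44 for complex III, 0.49 for complex IV and 0.40 for complex V.

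**Figure D1:**
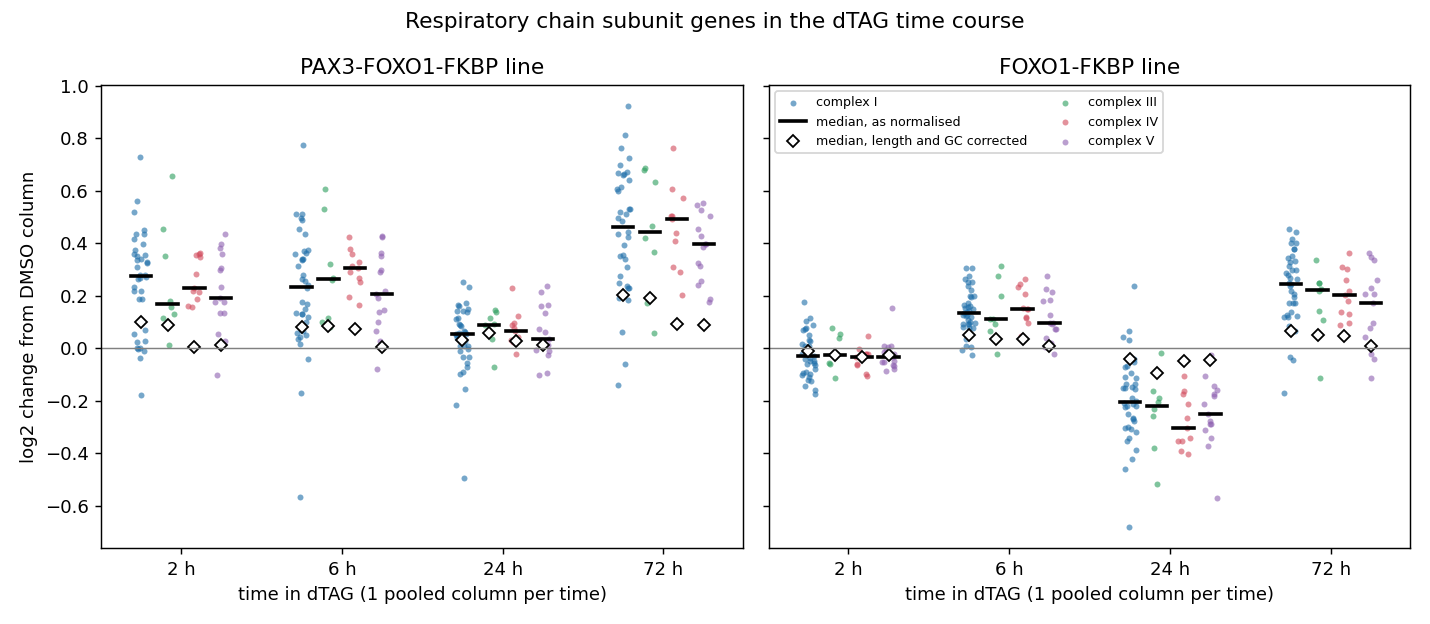
Log2 change of each subunit gene from the DMSO column of its line, at 4 times of dTAG, for the PAX3-FOXO1-FKBP line (left) and the FOXO1-FKBP line (right). Points are genes with a mean of at least 50 normalised counts, bars are complex medians, and open diamonds are medians after the length and GC correction. The medians of the left panel at 72 h lie between 0.40 and 0.49 and their diamonds between 0.09 and 0.20.

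In complex I the members differed widely at 72 h, and the accessory subunits NDUFB1, NDUFB2 and NDUFC2 were among the highest. NDUFB1 had 24.5 CPM (counts scaled to a common library size) in DMSO and 40.6, 41.9, 27.4 and 46.4 CPM at 2, 6, 24 and 72 h, a log2 change of 0.92 at 72 h. NDUFB2 had 43.2 CPM in DMSO, then 59.0, 60.9, 50.7 and 75.9 CPM, and NDUFC2 75.6 CPM, then 108, 108, 73.8 and 128 CPM. In all 3 the 24 h column stood near DMSO and the 72 h column was the highest. The core subunit NDUFS1 was level throughout, at 68.6 CPM in DMSO and 68.6, 61.0, 65.4 and 65.7 CPM. NDUFA4L2 was the lowest at 72 h relative to DMSO, with 9.96 CPM in DMSO and 8.80, 6.69, 7.04 and 9.04 CPM.

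In complex III the small subunits stood apart from the large core proteins. UQCRB had 101 CPM in DMSO and 160, 154, 108 and 162 CPM in dTAG, and UQCRQ 75.8 CPM, then 96.6, 94.6, 83.3 and 122 CPM. Core protein UQCRC2 had 151 CPM in DMSO and 164, 164, 167 and 157 CPM, and UQCRC1 152 CPM, then 153, 161, 145 and 172 CPM. The log2 change at 72 h was 0.68 for UQCRB and 0.69 for UQCRQ, but 0.06 for UQCRC2 and 0.17 for UQCRC1.

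In complex IV, COX7A2 had 131 CPM in DMSO and 166, 175, 134 and 222 CPM, a log2 change of 0.76 at 72 h, while COX7C, also a small subunit, had 162 CPM, then 197, 201, 160 and 187 CPM, a change of 0.20. In complex V the epsilon subunit ATP5E had 263 CPM in DMSO and 337, 352, 294 and 386 CPM. The catalytic beta subunit ATP5B had 591 CPM, then 603, 602, 596 and 667 CPM. ATP5E thus changed by 0.55 and ATP5B by 0.17 on the log2 scale at 72 h, and ATP5A1, the alpha subunit, by 0.19.

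Shorter transcripts had higher log2 changes, over all genes as well as among the members. The members' median coding length is 408 nt, against 1440 nt over the genes tested. Over 11926 genes, Spearman's rho between transcript length and log2 change in the PAX3-FOXO1-FKBP line was -0.32, -0.26, -0.01 and -0.30 at 2, 6, 24 and 72 h. These coefficients describe columns and carry no p. Members with less than 600 nt of coding sequence (53 genes) had medians of 0.31, 0.31, 0.06 and 0.50 at these times, and the 19 longer ones 0.10, 0.10, 0.05 and 0.25. When a loess curve on transcript length and GC content over all genes was subtracted, the members' median became 0.08, 0.08, 0.03 and 0.16, with 62 of 72 above 0 at 72 h. At 72 h the corrected complex medians were 0.20 for complex I, 0.19 for complex III, 0.09 for complex IV and 0.09 for complex V. With coding length in place of transcript length the members' median at 72 h was 0.18. How much of the shift belongs to length was not tested.

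**Figure D2:**
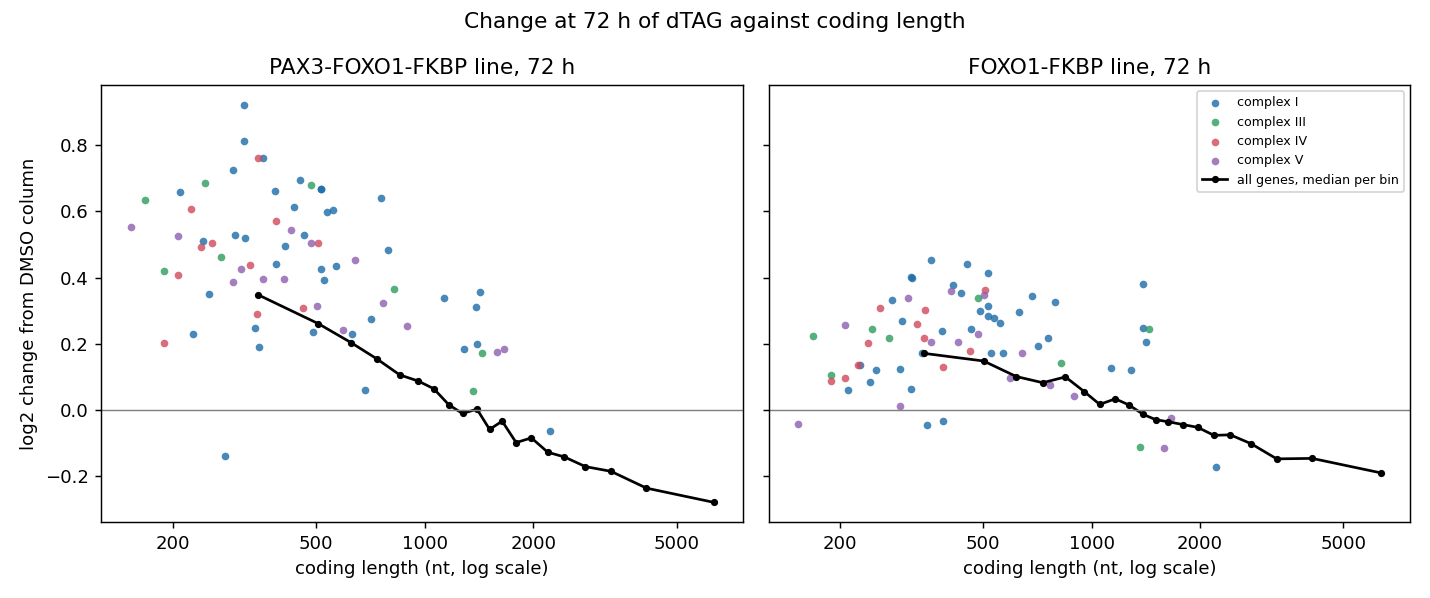
Log2 change at 72 h of dTAG against coding length (nt, log scale) in the PAX3-FOXO1-FKBP line (left) and the FOXO1-FKBP line (right). Coloured points are subunit genes by complex and the black line joins medians of all genes in 20 bins of coding length. In both panels the line slopes down with length and the members sit at its short end, mostly above it in the left panel.

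The FOXO1-FKBP line, which received the same compound, showed shifts of both signs. Median log2 changes of the 72 members were -0.03, 0.13, -0.22 and 0.22 at 2, 6, 24 and 72 h, with 21, 68, 4 and 65 genes above DMSO. The trend test called 0 of 73 members, 0% of all genes, and DESeq2 called 0. A single member (1 of 73) had an unadjusted p under 0.05 in this edgeR test, against 4.61% of all genes. No member was 2-fold from DMSO, where the shares of all genes were 0.0751%, 0.0584%, 0.2% and 0.426% in time order. Over all genes rho with transcript length was -0.03, -0.37, 0.34 and -0.49, and its sign ran opposite to the members' shift at 6, 24 and 72 h. After the length and GC correction the members' medians were -0.02, 0.04, -0.05 and 0.05. Without the 24 h column 24 members passed with slopes above 0, among them NDUFC2, NDUFS5, NDUFV1, COX4I1, ATP5G1 and UQCRB, along with 8.55% of all genes.

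The difference between lines in slope was called for 0 of 73 members, against 2.02% of all genes, with 0 members by DESeq2 and a lowest adjusted p of 0.563 (edgeR, NDUFB4). At an unadjusted p under 0.05 there were 0 members, against 12.6% of all genes. The slope was higher in the PAX3-FOXO1-FKBP line for 65 of the 73. NDUFB1, highest at 72 h in that line, had 44.9 CPM in DMSO in the FOXO1-FKBP line and 47.1, 52.3, 28 and 47 CPM in dTAG. UQCRB there had 209 CPM in DMSO and 214, 259, 146 and 264 CPM, and ATP5E 555 CPM, then 535, 593, 374 and 540 CPM. The levels of the DMSO columns themselves differed between lines, which makes equal log2 changes unequal in CPM.

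Other lists, chosen with earlier results known, were read beside the members, without the length and GC correction. No gene of any list below passed a trend test. At 72 h in the PAX3-FOXO1-FKBP line the median log2 change was 0.47 for 36 proteasome subunits, 0.31 for 75 mitochondrial ribosomal proteins, 0.26 for 83 cytosolic ribosomal proteins and 0.17 for 13 tricarboxylic acid cycle enzymes. At 24 h in the FOXO1-FKBP line these medians were -0.19, -0.18, -0.29 and -0.12. The 4 subunits of complex II had 0.27 at 72 h in the PAX3-FOXO1-FKBP line, 20 complex IV assembly factors 0.44, 14 complex I assembly factors 0.22, 5 of complex III 0.12 and 3 of complex V -0.02. The 6 further chain proteins outside the symbol rule, cytochrome c among them, had 0.52. Among regulators of mitochondrial biogenesis the median over 16 genes was -0.05. No mitochondrially encoded mRNA is listed in these tables under its usual name.

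In the clone table, clones 11 and 12 had raised levels of most subunit genes, and clones 4 and 10 had mixed changes. All 4 comparisons share the same parental libraries. Of 73 members tested, 48 were higher and 1 lower in clone 11 than in parental cells, and 50 were higher and 1 lower in clone 12 (edgeR quasi-likelihood test on all 10 libraries, adjusted p under 0.05). Over all genes tested 26.5% were higher and 25.1% lower in clone 11, and 27.8% and 24.7% in clone 12. In clone 4 20 members were higher and 7 lower, against 25.1% and 22.3% of all genes, a share of higher members near the background. In clone 10 11 were higher and 12 lower, against 27.8% and 24.2%. A difference among the 5 groups was called for 69 of 73 members and 83.1% of all genes. All clone counts over the 73 members include COX7A1, which passed the low-count filter only because of clone 11. It is among the higher members in clone 11 and the lower ones in clones 4 and 10, and is the 1 lower member in clone 12. Median log2 fold changes were 0.21 in clone 4, 0.04 in clone 10, 0.66 in clone 11 and 0.69 in clone 12.

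By complex, the clone 11 medians were 0.67 for complex I, 0.54 for III, 0.84 for IV and 0.43 for V, and those of clone 12 were 0.80, 0.46, 0.66 and 0.67. In clone 10 complex IV was the lowest at -0.33, with 1 of 12 genes higher and 4 lower. After the length and GC correction this median was 0.07, with 4 genes higher and 2 lower, and with coding length it was -0.03. The members' share of all counts was 0.882% and 1.135% of counts in clone 4, 0.843% and 1.002% of counts in clone 10, 1.229% and 1.285% of counts in clone 11, 1.287% and 1.289% of counts in clone 12, and 0.950% and 0.956% of counts in parental cells. Every library of clones 11 and 12 was thus above both parental libraries, while those of clones 4 and 10 lay on either side.

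**Figure D3:**
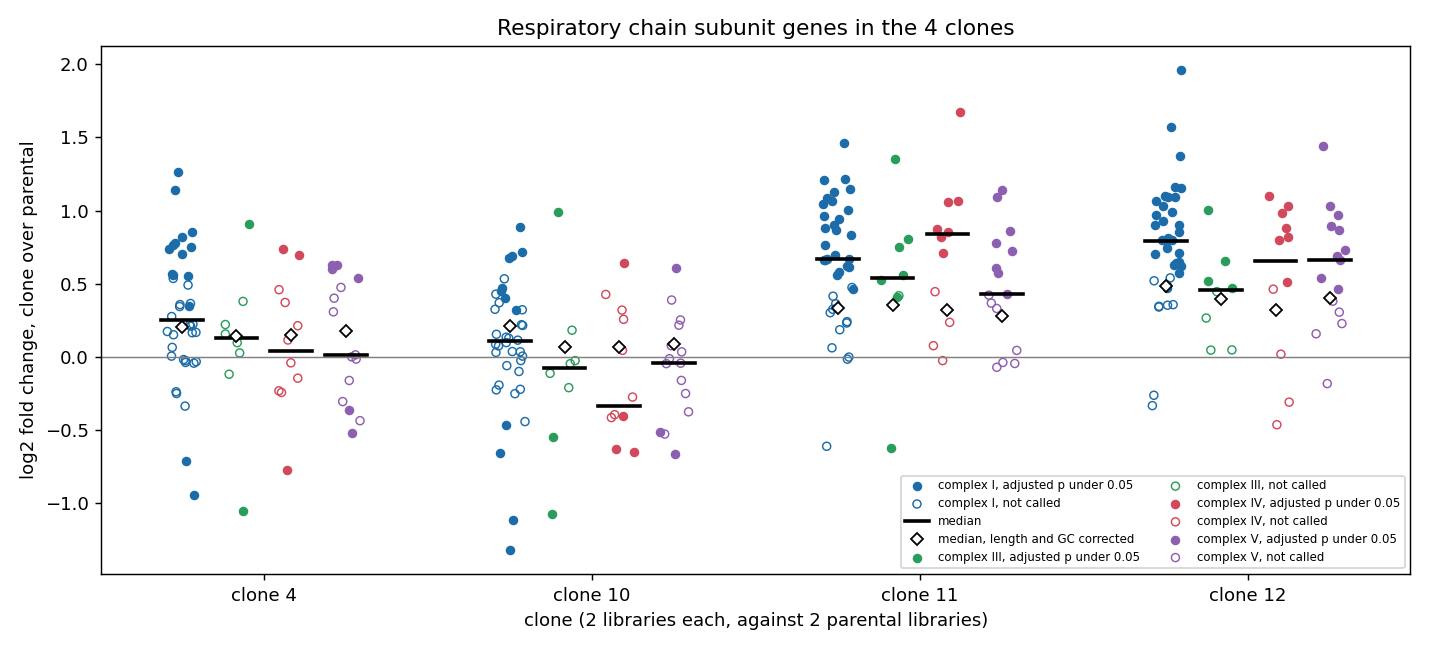
Log2 fold change of each subunit gene, clone over parental Rh30, for clones 4, 10, 11 and 12 by complex, with 2 libraries per group. Filled points had an adjusted p under 0.05, bars are complex medians and open diamonds medians after the length and GC correction; COX7A1, near 0 counts in 3 clones, is in the medians and not drawn. Points of clones 11 and 12 lie mostly above 0, with medians of 0.43 to 0.84.

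The libraries of a group agreed to different degrees. The 2 parental libraries agreed almost within sampling noise, with a chi-square per degree of freedom of 1.84 over genes, against 51.3 in clone 4, 20.1 in clone 10, 30.1 in clone 11 and 14 in clone 12. Between the 2 libraries of clone 4 the members differed by a median of 0.53 on the log2 scale, 71 of 73 the same way, and by 0.34 in clone 10, 0.17 in clone 11, 0.03 in clone 12 and 0.01 in parental cells. Over all genes the difference between the pair ran with transcript length, with a rho of -0.57 in clone 4, -0.39 in clone 10, -0.24 in clone 11, -0.06 in clone 12 and -0.05 in parental cells, and the members' median difference in clone 4 was 0.14 after correction. Without replicate 2 of clone 4 its median fold change was -0.15, and without replicate 2 of clone 10 that of clone 10 was -0.22. Without replicate 1 of clone 10 the clone 10 median was 0.19, so its sign changed with the library left out. It was also below 0 when any 1 library of clones 4, 11 or 12 was left out (-0.0147 to -0.0337). The same held without the low-count filter (-0.0379) and under library totals (-0.0854). With 1 parental library left out, fewer members were called in every clone, and fewer of all genes. The members' medians were then 0.19 and 0.21 in clone 4 and 0.005 and 0.05 in clone 10. With the parental pair summed to 1 the medians of clones 4 and 10 were 0.20 and 0.03. Without replicate 2 of clone 11 its median was 0.52, and without the second column of clone 12 that of clone 12 was 0.61. After the length and GC correction the medians were 0.17, 0.10, 0.32 and 0.41 in clones 4, 10, 11 and 12. Corrected calls were 26 higher and 7 lower for clone 4, 22 higher and 8 lower for clone 10, 40 higher and 4 lower for clone 11, and 46 higher and 5 lower for clone 12. Of 13564 genes tested with the correction, 3411 were higher and 2779 lower in clone 4 and 3463 and 2867 in clone 10. In clone 11 the counts over all genes were 3039 and 2628, and in clone 12 they were 3465 and 2912.

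Members higher in all 4 clones included UQCRC1, NDUFB9, NDUFB7 and ATP5B. UQCRC1, a core protein of complex III, had 230 and 269 CPM in clone 4, 252 and 278 CPM in clone 10, 312 and 369 CPM in clone 11 and 265 and 270 CPM in clone 12, against 132 and 135 CPM in parental cells. No clone library overlapped the parental pair. Its log2 fold changes were 0.91, 0.99, 1.35 and 1.00 (SE 0.135 to 0.136, adjusted p 9.49e-05 to 0.000474 by edgeR) and 0.50, 0.53, 0.74 and 0.45 after the length and GC correction. NDUFB9, an accessory subunit of complex I, had 185 and 261 CPM in clone 4, 125 and 172 CPM in clone 10, 193 and 218 CPM in clone 11 and 185 and 194 CPM in clone 12, against 94.0 and 91.2 CPM in parental cells. Its call in clone 10 (log2 0.68, edgeR adjusted p = 0.0103) was lost when either parental library or replicate 2 of clone 10 was left out.

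Among the core subunits of complex I, NDUFS7, NDUFS8 and NDUFV1 rose in clones 4, 11 and 12, with log2 fold changes between 0.55 and 1.21. The correction ended the calls of NDUFS7 in clones 4 and 11 and of NDUFS8 in clone 12. NDUFS1, which carries iron-sulfur clusters, rose in clones 4 (0.35) and 12 (0.70), and NDUFV2 was called in none. NDUFA9, an accessory subunit near the quinone site, had 164 and 175 CPM in clone 4, 68.1 and 79.9 CPM in clone 10, 149 and 139 CPM in clone 11 and 171 and 158 CPM in clone 12, against 77.4 and 76.7 CPM in parental cells. Clone 10 overlapped the parental pair and the other 3 clones were about at the same raised level, with log2 fold changes of 1.14, 0.90 and 1.09.

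The accessory subunits NDUFA5 and NDUFS4 of complex I went the other way in clones 4 and 10. NDUFA5 had 23.3 and 36.4 CPM in clone 4, 20.2 and 25.8 CPM in clone 10, 44.8 and 30.1 CPM in clone 11 and 39.5 and 51.5 CPM in clone 12, against 56.6 and 58.0 CPM in parental cells. Its fold changes in clones 4 and 10, -0.94 and -1.32 on the log2 scale (edgeR adjusted p = 0.00904 and 0.00138), became -0.05 and -0.14 and lost their calls after the length and GC correction. NDUFS4, whose loss causes complex I deficiency in people and mice, had 16.7 and 26.3 CPM in clone 4, 13.5 and 18.9 CPM in clone 10, 46.1 and 41.8 CPM in clone 11 and 49.1 and 51.6 CPM in clone 12, against 32.8 and 37.4 CPM in parental cells. It fell in clones 4 and 10 by 0.71 and 1.12 on the log2 scale, and its call in clone 4 was lost without either parental library or without replicate 1 of clone 4. The highest single rise among genes named for complex I was that of NDUFA4L2 in clone 12, at 21.0 and 25.9 CPM against 5.72 and 6.33 CPM in parental cells, a log2 fold change of 1.96. NDUFB8 followed in the same clone with 362 and 390 CPM against 127 and 126 CPM, a log2 fold change of 1.57.

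In complex III, UQCRB was the member with calls below parental cells in 3 clones. It had 50.9 and 84.4 CPM in clone 4, 58.5 and 75.3 CPM in clone 10, 90.0 and 92.3 CPM in clone 11 and 141 and 149 CPM in clone 12, against 138 and 142 CPM in parental cells. It fell by 1.05, 1.07 and 0.62 on the log2 scale in clones 4, 10 and 11, and only clone 12 was level with parental cells. The length and GC correction moved these values to -0.44, -0.39 and 0.09, all uncalled and the last reversed, on an annotated transcript that is long for the gene. UQCRFS1, the Rieske iron-sulfur protein, was lower in clone 10 (-0.55) and higher in clones 11 (0.41) and 12 (0.47), and those calls were lost without either parental library.

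In complex IV, COX5B, a nuclear-encoded peripheral subunit, rose in clones 11 and 12. It had 98.4 and 149 CPM in clone 4, 116 and 142 CPM in clone 10, 277 and 334 CPM in clone 11 and 192 and 187 CPM in clone 12, against 95.9 and 95.4 CPM in parental cells. The fold change was 1.68 in clone 11 (SE 0.192, edgeR adjusted p = 0.000137) and 0.99 in clone 12. COX4I1, COX6A1, COX6B1, COX7A2 and COX8A also rose in both clones, by 0.80 to 1.10. After the length and GC correction the calls of COX6B1 were lost in both (0.18 and 0.23), and that of COX8A in clone 11 (0.32). COX6C fell in clones 4 and 10, by 0.77 and 0.63, the second call being lost without either parental library or after the correction, and COX5A was called in none.

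The heart and muscle isoform COX7A1 was low in all libraries and differed between clones. It had 1 and 0 counts in clone 4, 0 and 1 counts in clone 10, 34 and 47 counts in clone 11 and 0 and 0 counts in clone 12, against 12 and 8 in parental cells. The clone 11 libraries were above the parental pair and the other 6 below it. Clone 11 was 5.64-fold above parental cells by summed counts (95% counting interval 3.42 to 9.71, log2 fold change 2.54). The gene passed the low-count filter only because of the clone 11 libraries, where it was high. Its calls are therefore no independent evidence. Clone 12 was at least 4.54-fold lower than parental cells, taking 3 counts over the group as the floor, and the ratio of clone 4 to parental cells was 0.0726 (0.00175 to 0.454). Even in clone 11 the level was 3.12 and 5.76 TPM, far under the 494 and 442 TPM of COX7A2 in the same libraries. Intervals and floors cover counting error only.

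In complex V the F1 subunits, which make up the catalytic head, were called in different clones, and differences between them were not tested. ATP5B rose in all 4 clones, by 0.60, 0.61, 0.43 and 0.87 on the log2 scale, and its call in clone 11 was lost after the correction and without either parental library. ATP5A1 rose in clone 11 alone, with 616 and 594 CPM there, 358 and 384 CPM in clone 4, 355 and 373 CPM in clone 10 and 322 and 325 CPM in clone 12, against 365 and 369 CPM in parental cells. ATP5C1, the gamma subunit, had 56.2 and 66.1 CPM in clone 4, 45.0 and 54.3 CPM in clone 10, 122 and 119 CPM in clone 11 and 124 and 130 CPM in clone 12, against 76.2 and 81.2 CPM in parental cells. Clones 4 and 10 were below both parental libraries and clones 11 and 12 above them, with log2 fold changes of -0.36, -0.66, 0.61 and 0.69. After the length and GC correction these were -0.05, -0.15, 0.71 and 0.82, with the calls in clones 4 and 10 lost. The clone 4 call was also lost without either parental library or without replicate 1 of clone 4. Of the c-ring genes, ATP5G1 rose most in clone 12, to 213 and 213 CPM against 77.8 and 79.1 CPM in parental cells, and ATP5G3 rose in clones 11 (1.09) and 12 (0.97). ATP5E was called in no clone.

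**Figure D4:**
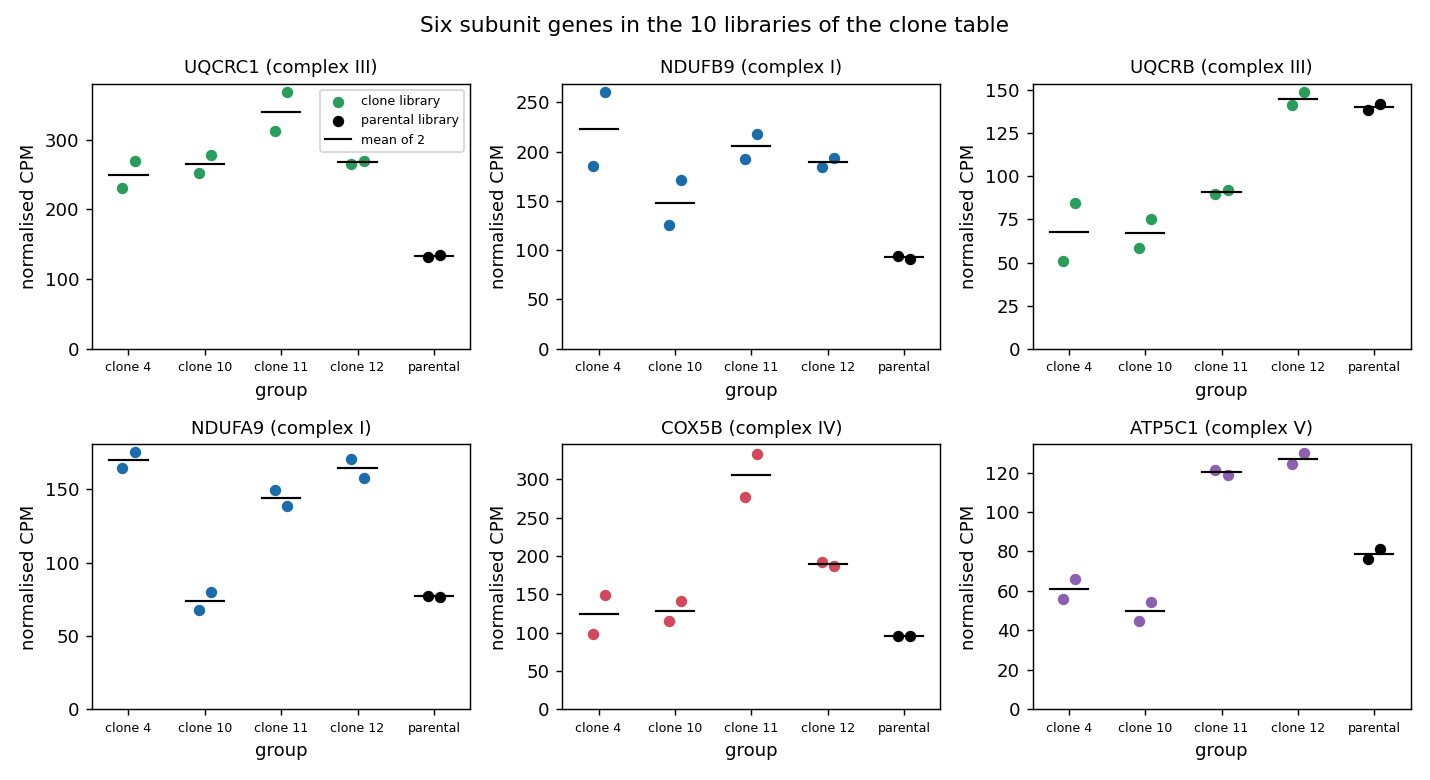
Normalised CPM of 6 subunit genes in the 10 libraries of the clone table. Points are libraries, coloured by complex for clones and black for parental Rh30, and bars are means of 2. UQCRC1 and NDUFB9 are above parental cells in all 8 clone libraries, and UQCRB is below them in clones 4, 10 and 11.

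Fold changes of the members ran with those of the genes beside them. For each member the median log2 fold change of the 10 tested genes on either side, in RefSeq order and without other members, was set beside its own. Spearman's rho over 73 members was 0.63 in clone 4, 0.55 in clone 10, 0.63 in clone 11 and 0.58 in clone 12. Over all 13649 placed genes the same quantity was 0.43, 0.41, 0.49 and 0.47. These are descriptions across genes, which share libraries and neighbours, so no p is given. UQCRB on chromosome 8 stood at -1.05 in clone 4 where its neighbours had a median of -1.25, at -1.07 against -0.96 in clone 10 and at -0.62 against -0.92 in clone 11. NDUFA9 on chromosome 12 stood at 1.14 in clone 4 against 0.92 for its neighbours, at -0.06 against 0.01 in clone 10, at 0.90 against 0.23 in clone 11 and at 1.09 against 0.64 in clone 12. ATP5G1 on chromosome 17 stood at 1.44 in clone 12 against 1.07. NDUFB9, also on chromosome 8, did not go with its neighbours, at 1.27, 0.68, 1.15 and 1.03 against -0.00475, -0.18, -0.31 and -0.14. Members lay above their neighbours' median in 54 of 73 cases in clone 4, 34 in clone 10, 69 in clone 11 and 67 in clone 12. No DNA was measured, and the part that gene position plays was not tested.

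**Figure D5:**
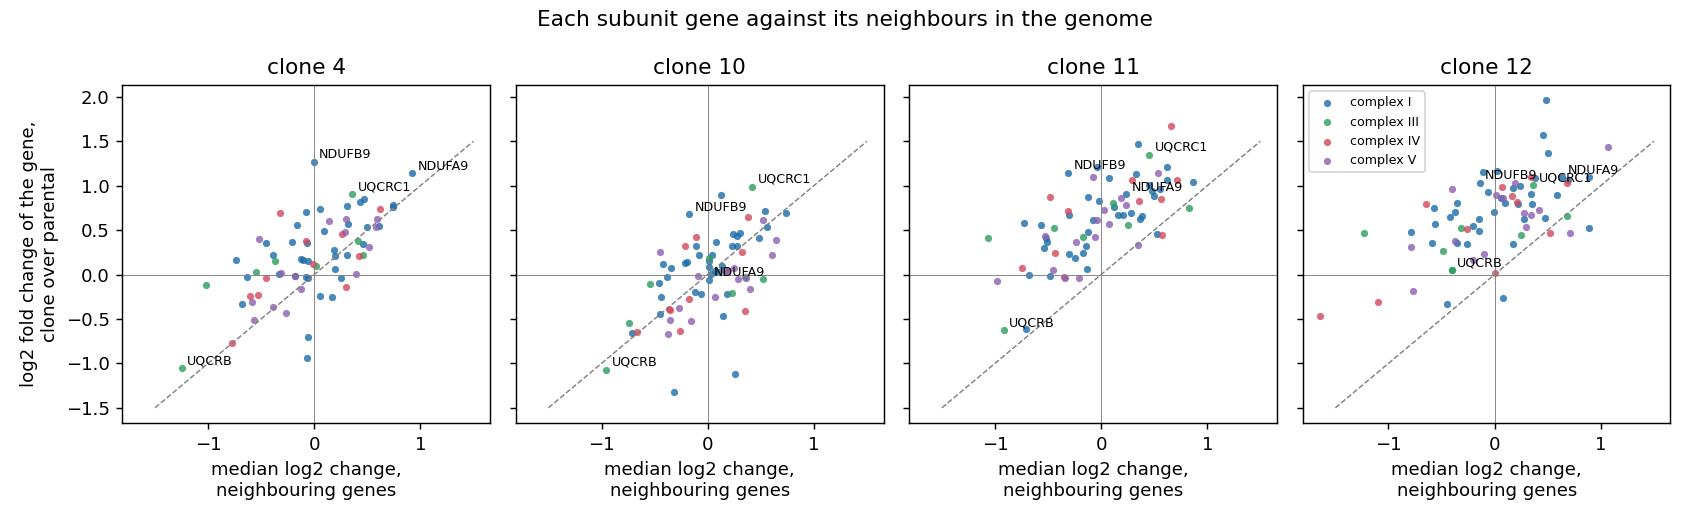
Log2 fold change of each subunit gene in a clone (vertical) against the median log2 fold change of the 10 tested genes on each side of it (horizontal), both over parental Rh30; the dashed line marks equality and COX7A1 is not drawn. Points rise from lower left to upper right in all 4 panels, and in clones 11 and 12 most lie above the line.

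Other lists were counted in the same way, without the length and GC correction. Of 75 mitochondrial ribosomal proteins, 26 were higher and 7 lower in clone 4, 15 higher and 22 lower in clone 10, 45 higher and 3 lower in clone 11, and 43 higher and 3 lower in clone 12. Of 37 proteasome subunits, 25 were higher and 1 lower in clone 11 and 23 and 2 in clone 12. Of 83 cytosolic ribosomal proteins, 4 were higher and 25 lower in clone 4, 3 higher and 35 lower in clone 10, 27 higher and 3 lower in clone 11, and 19 higher and 4 lower in clone 12. The all-gene shares given above (22.3% to 27.8% in either direction) apply to these lists too. CYC1, the cytochrome c1 subunit of complex III, rose in all 4 clones, by 1.40, 0.69, 1.22 and 1.45, and SDHA of complex II by 0.60, 1.07, 0.99 and 0.60. Of 13 tricarboxylic acid cycle enzymes, 7 were higher and 1 lower in each of clones 11 and 12. Of 14 complex I assembly factors, 5 were higher and 3 lower in clone 4, 4 higher and 5 lower in clone 10, 4 higher and 0 lower in clone 11, and 6 higher and 0 lower in clone 12. Of 20 for complex IV the counts were 6 higher and 4 lower, 3 higher and 6 lower, 9 higher and 1 lower, and 10 higher and 2 lower in the same clone order.

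Regulators of mitochondrial biogenesis had calls in both directions, again without the length and GC correction. GABPA, an ETS factor known to act on promoters of respiratory genes, fell by 1.10, 0.74, 1.34 and 1.11 on the log2 scale in clones 4, 10, 11 and 12. TFAM, which packages mitochondrial DNA and activates its transcription, fell by 0.77, 0.85, 0.97 and 0.66. ESRRA, a nuclear receptor of mitochondrial gene programmes, rose in clones 4 (0.52), 11 (0.63) and 12 (1.15). NRF1 passed in no clone, with values between -0.15 and 0.10. PPARGC1A, their coactivator, averaged only 12.6 counts per library and stood at -1.92, 1.86, -2.82 and 3.20, uncalled in clone 4. Of the 4 names counted apart, COX4NB rose in clones 10, 11 and 12, ATP5S fell in clone 10 and ATP5SL rose in clones 4 and 11, while ATP5J2-PTCD1 ranged between 0 and 74.5 estimated counts in the time course and is not read further.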

How the data were processed

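RNA of Rh30 cells was measured by sequencing in 30 samples. The authors deposited estimated counts per gene for the time course, 1 pooled column per condition, of which 73.6% are not whole and which were rounded for edgeR, and whole-number counts per library for the clone table. Per the submitters' processing notes, Trimmomatic 0.32, Bowtie2, Cuffdiff 2.1.1 and hg19 were used, in roles that these notes do not state.

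Groups came from the labels. Counts were scaled by TMM and tested with edgeR 4.0.16 in R 4.3.3 (quasi-likelihood, minimum count 10, Benjamini-Hochberg over all genes tested, threshold 0.05). The time course was fitted as a slope on log2 of hours plus 1 (3 residual degrees of freedom, 6 for the difference between lines), which takes scatter about the line as error. The clone table was fitted on all 10 libraries (5 residual degrees of freedom). Log2 changes use a prior count of 2. The correction subtracts a loess curve (span 0.3) on transcript length and GC content. Fold rules were 2 and 1.5 at a mean of at least 50 normalised counts. Alternatives were DESeq2 1.42.0, library totals, no low-count filter, corrections, leaving out libraries or single dTAG columns, time as rank, and a replicate block. Scripts were tested on simulated data. Transcript length, coding length and GC content came from the GENCODE annotation. Positions and promoters came from RefSeq GRCh38.p14, for names, gene order and sequence only. Rows with 4 spreadsheet-damaged names were left out.

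Members and lists were chosen with earlier results of these data known. Named were members among the called ones, the 2 highest and 2 lowest of each complex at 72 h, the 2 of each complex with the highest level per length, isoform groups and rare members; other genes named in comparisons were chosen after their values were seen. Depth is given with the report. Not every called member is named, and 1 is not reported here.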

Additional observations from a re-analysis of the deposited data

Results flagged for a closer look

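Members that were called above parental cells in 1 clone and below them in another are listed here. Beside each stands the edgeR quasi-likelihood test of the difference between those clones (Benjamini-Hochberg adjusted, 2 libraries per clone). The calls that chose these members came from the same libraries and fit, so the p-values below are no independent support. The share of all genes with such opposite calls was not counted. ATP5C1 was higher in clone 11 than in clone 10 by 1.28 on the log2 scale (adjusted p = 9.45e-05) and than in clone 4 by 0.98 (adjusted p = 0.000554). It was higher in clone 12 than in clone 10 by 1.35 (adjusted p = 8.28e-05) and than in clone 4 by 1.06 (adjusted p = 0.000307). UQCRFS1 was higher than in clone 10 by 0.96 in clone 11 (adjusted p = 0.000757) and by 1.02 in clone 12 (adjusted p = 0.000665). COX7A2L was higher in clone 12 than in clone 10 by 0.91 (adjusted p = 0.000801), and NDUFA10 was higher in clone 11 than in clone 10 by 0.93 (adjusted p = 0.000276). COX7A1, which passed the low-count filter only because of clone 11, was above parental cells there, with a log2 fold change of 2.54. It was below them in the other 3 clones, where it had at most 1 count per library.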

How the results depend on the processing

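With the 24 h column the trend called 0 members in either line. Without it, 8 of 73 were called in the PAX3-FOXO1-FKBP line and 24 of 73 in the FOXO1-FKBP line. The shares of all genes called without it were 9.94% and 8.55%, the first near the share of members. Without the 2, 6 or 72 h column, or with time as rank, 0 members were called in either line. Under the 1.5-fold rule 2, 2 and 18 members were higher at 2, 6 and 72 h in the PAX3-FOXO1-FKBP line. The shares of all genes were 2.08%, 2.94% and 9.65%. In the FOXO1-FKBP line 1 of 72 members was lower at 24 h and 0 were higher. Of 11980 genes 75 were lower and 135 higher there. The PAX3-FOXO1-FKBP median at 72 h was 0.16 after the length and GC correction and 0.18 with coding length. In clones 11 and 12 the members' medians were 0.43 and 0.47 under library totals, a scaling that moved the all-gene median by -0.23 and -0.19. After the length and GC correction the members' medians were 0.32 and 0.41, and with coding length 0.33 and 0.38. In the fits below, which leave 1 library in a group, the number of all genes called changed as well. Their counts of called members are therefore not read as particular to the members. Leaving out 1 library gave 10 to 34 called members in clone 4, 7 to 28 in clone 10, 24 to 57 in clone 11 and 33 to 61 in clone 12, and medians between -0.15 and 0.41 in clone 4 and between -0.22 and 0.19 in clone 10. With the parental libraries summed to 1, an alternative chosen after seeing the data as was coding length, 11 were called in clone 4 and 9 in clone 10.

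These log2 fold changes reversed, with the value after the transcript length correction first and after the coding length correction second where both reversed. In clone 10 they were COX7A2L (0.0974 and 0.015), and by transcript length COX7C (0.0386) and NDUFB5 (0.101). In clone 11 they were ATP5D (-0.14 and -0.13), NDUFA11 (-0.11 and -0.14), NDUFA3 (-0.0417 and -0.0801), UQCRB by transcript length (0.0889) and UQCR11 by coding length (-0.0193). In clone 12 they were ATP5D (-0.13 and -0.14), ATP5G2 (-0.013 and -0.108), NDUFB11 (-0.0122 and -0.0422) and NDUFA3 by coding length (-0.0171). The cause was not tested.

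Deviations of same-numbered libraries correlated at 0.01 to 0.02 between clones and parental cells, and at 0.36 between clones 10 and 4, 0.16 between clones 11 and 4 and 0.15 between clones 11 and 10. Since not every pair passed 0.1 and no label ties the numbers to a shared culture or day, they were not taken as pairs. With the replicate block, without clone 12, whose numbers differ, 31, 26 and 49 members were called in clones 4, 10 and 11 and 62 for any difference. Of 14066 genes tested, 7046, 7705 and 7689 were called in these clones and 11357 for any difference. Pooled time-course columns allow no replicate error, and genes near 0 counts limit the isoform comparisons.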
